A study of Homo sapiens with 16 samples.

Results

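The MHC class II genes measured here were HLA-DRA, HLA-DRB1, HLA-DPA1, HLA-DPB1, HLA-DQA1, HLA-DQB1, HLA-DMA and HLA-DMB, with CD74, which encodes the invariant chain, and CIITA, which encodes the class II transactivator. They were chosen by gene symbol, and each symbol matched 1 row of the deposited table, so the set held 10 of the 58051 genes listed. All 10 passed the filter on low values, a mean of at least 10 normalized counts over all libraries, and so were among the 13765 genes tested. In GENCODE 29 (GRCh38) the 8 class II chain genes lie on chromosome 6, from HLA-DRA (32439842 to 32445046, plus strand) to HLA-DPB1 (33075926 to 33087201, plus strand). CD74 lies on chromosome 5 (150401637 to 150412929, minus strand) and CIITA on chromosome 16 (10866222 to 10943021, plus strand), and values are per whole gene. RNA was sequenced from P493-6, a single immortalised human B cell line in which doxycycline represses a MYC transgene and oestrogen activates the Epstein-Barr virus factor EBNA2. High MYC cells were kept in plain DMEM. For medium MYC, doxycycline at 0.1 µg/mL was added 24 hours before treatment along with β-estradiol at 1 µM, so the 2 MYC levels also differed in both agents and the parts of MYC, doxycycline and oestrogen cannot be told apart. Cells at either level then spent 24 hours with IMP1088 at 100 nM or with its solvent DMSO. IMP1088 blocks NMT1 and NMT2, the enzymes that attach myristate to the N terminus of proteins. The 4 groups held 4 libraries each, 16 in all. The comparisons ask how the inhibitor and the MYC level, alone and in combination, changed the transcripts of the class II pathway. In bulk RNA, fewer cells making a transcript and less transcript per cell cannot be told apart.

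MHC class II molecules are pairs of an α and a β chain that present peptides from the endosomal system to CD4+ T cells, and B cells carry them constitutively. In the endoplasmic reticulum the invariant chain fills the peptide groove and steers the complex to late endosomes, where proteases trim it to a short fragment, CLIP. HLA-DM then exchanges CLIP for antigenic peptide. Transcription of the whole family is set mainly by CIITA, a coactivator that does not bind DNA itself but docks on a complex of RFX, CREB and NF-Y proteins at a conserved promoter module with S, X and Y boxes.

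The promoter letters were searched for cores of the X and Y boxes, which only some of the genes held at a set spacing. Windows of 70 bases were read from the RefSeq promoter table (build GRCh38.p14, 250 bases before each gene start searched), which matched 8 of the 10 genes. HLA-DRA and CIITA had no entry. Below are 5 windows that hold both motifs and, for contrast with its partner HLA-DMA, the HLA-DMB window, which holds X letters but no Y core at that spacing. Each is written 5′ to 3′ on the gene's own strand, with the letters of an X core (CNAGNNAC) and of a Y core (ATTGG, or its reverse complement CCAAT) in capitals.
CD74: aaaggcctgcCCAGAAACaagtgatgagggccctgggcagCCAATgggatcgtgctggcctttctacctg
HLA-DRB1: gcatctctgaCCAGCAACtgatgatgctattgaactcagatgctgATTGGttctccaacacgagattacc
HLA-DQA1: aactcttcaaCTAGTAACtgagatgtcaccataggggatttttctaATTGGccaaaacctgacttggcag
HLA-DQB1: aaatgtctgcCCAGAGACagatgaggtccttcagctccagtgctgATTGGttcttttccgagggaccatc
HLA-DMA: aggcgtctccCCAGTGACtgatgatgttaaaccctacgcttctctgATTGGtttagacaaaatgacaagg
HLA-DMB: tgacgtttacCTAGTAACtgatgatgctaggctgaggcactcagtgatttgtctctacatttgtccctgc
The windows lay at chr5:150412934-150413003 (minus strand), chr6:32589870-32589939 (minus), chr6:32637292-32637361 (plus), chr6:32666721-32666790 (minus), chr6:32953153-32953222 (minus) and chr6:32941059-32941128 (minus), all upstream of the RefSeq start. Alone, the motifs were common: 33.2% of 35114 promoters held the X core and 32.0% the Y core, both strands counted. An X core followed by a Y core whose starts were 20 to 40 bases apart stood in 243 promoters, 0.692% of all, and in 5 of the 8 class II promoters: CD74, HLA-DRB1, HLA-DQA1, HLA-DQB1 and HLA-DMA. In those 5 the distance ran from 30 bases in CD74 to 36 in HLA-DQA1 and HLA-DMA. HLA-DMB held 1 match of each core outside that spacing and order. Of the 2 HLA-DPA1 entries, 1 held an X core and the other neither core, and HLA-DPB1 held Y cores and no X core. The motifs and their spacing were set with these sequences in view, and a match is a description of letters, not of a bound site.

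Library depth ran from 8755296 to 13858534 reads, and the 10 genes together took 0.238% to 0.438% of them, with at least 228 reads for each gene in every library. MYC itself stood at 31649 ± 2129.7 normalized counts (SD, n = 4; reads divided by 1 scaling factor per library) at high MYC with DMSO and at 959 ± 48.7 at medium MYC with DMSO. With IMP1088 it stood at 47542 ± 505 and 1382 ± 51.2, and the rises of 0.59 and 0.53 (log2) passed the test at both MYC levels. MYC therefore moved together with both factors of the design, and its part in the class II changes was not tested. All 8 B cell markers were read in every group. Of 7 T cell markers, CD3D, CD5 and CD8A had at most 3 reads in any library, while CD3E and CD3G were expressed at group means of 32.3 to 59.6 and 12.5 to 28.7 normalized counts. Of 8 monocyte and dendritic cell markers, FCGR1A and FCER1A had at most 3 reads and CLEC9A none, while ITGAM, LYZ and CD1C had group means of 55.9 to 221, 47.8 to 67.7 and 10.9 to 44.9.

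At high MYC, IMP1088 lowered the whole class II set. All 10 genes fell, with log2 changes from -0.17 (HLA-DQB1) to -0.40 (HLA-DRB1), and in each the 4 IMP1088 libraries lay below the 4 DMSO libraries. The median log2 change was -0.26, against -0.02 for all 13765 genes tested. Across those genes 26.8% changed, 16.3% of them all being called lower and 10.5% higher, and 15.8% had every IMP1088 library below every DMSO library. A change is called here when limma's adjusted p (two-sided, Benjamini-Hochberg over all genes tested) is under 0.05, and log2 changes are on the scale of normalized counts plus 1. After quantile normalization the calls over all genes split into 1727 higher and 1770 lower, from 1442 and 2247, while the class II count stayed at 10 lower. In the same comparison 7 of 8 B cell markers fell. Of 6 plasma cell markers 3 rose and 1 fell, and over the alternatives 2 to 3 rose and 1 fell. The part of those shifts in the class II falls was not tested.

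**Figure D1:**
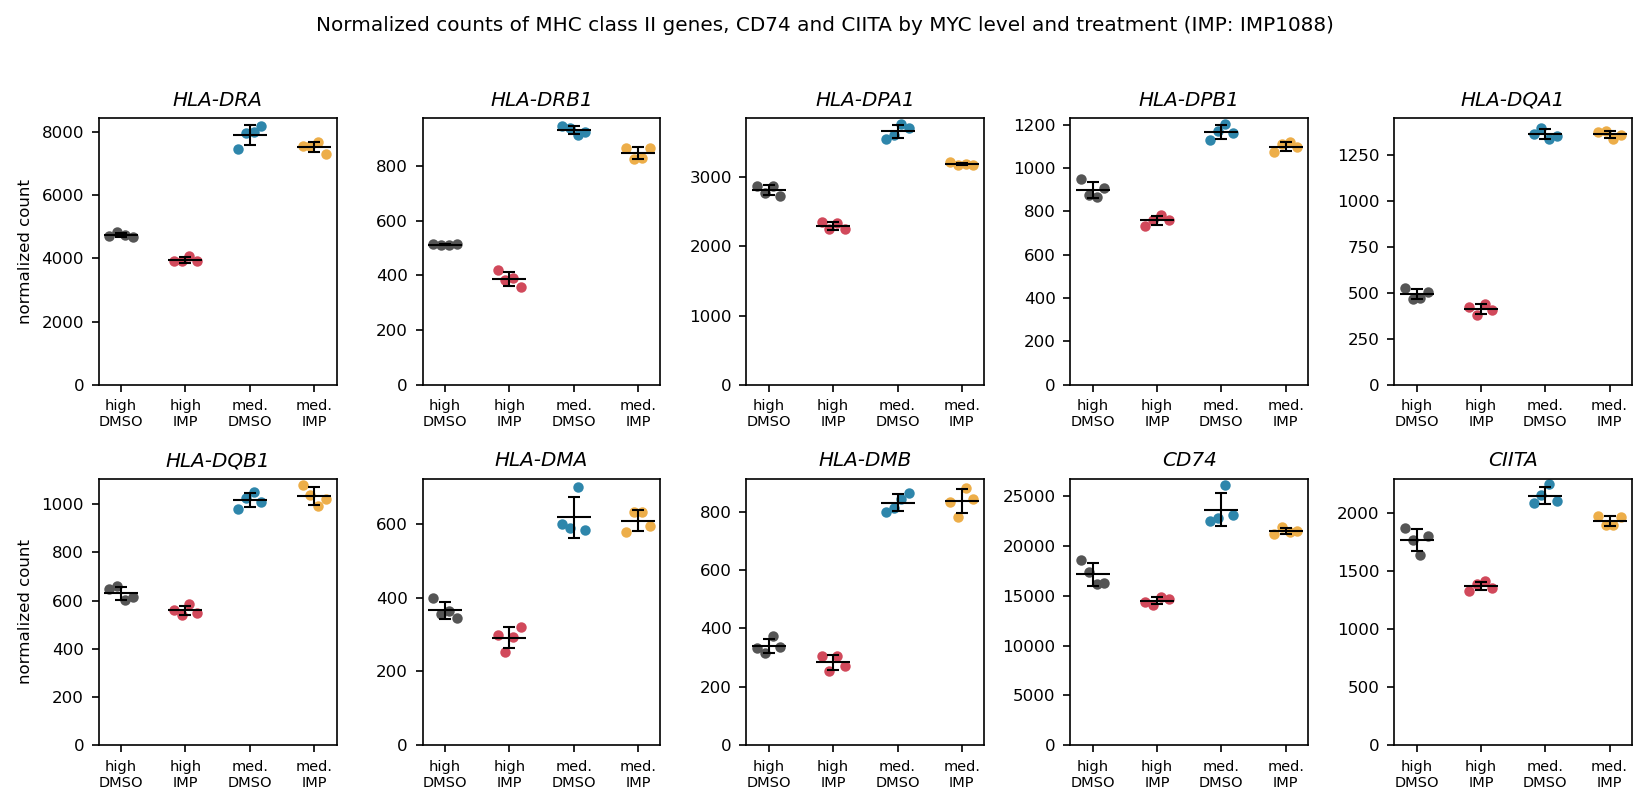
Normalized counts (vertical axes, from 0) of the 10 genes in each library, by MYC level and treatment; points are libraries, horizontal bars the mean of 4 and whiskers 1 SD. At high MYC the IMP1088 points lie below the DMSO points in all 10 panels, and all medium MYC points lie above the high MYC points.

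CIITA, the transactivator, had one of the clearest falls. Its DMSO libraries at high MYC held 1865, 1767, 1637 and 1797 normalized counts in replicates 1 to 4, and its IMP1088 libraries 1325, 1386, 1408 and 1353. No IMP1088 library came within the DMSO range. CIITA fell by 22.5%, from 1766 ± 95.6 (SD, n = 4) to 1368 ± 36.4 (log2 change -0.37, SE 0.04, adjusted p = 1.91e-07). CIITA shares 2416 exonic bases with DEXI on the other strand, which stood at no more than 121 normalized counts in any library, and 2378 with AC133065.3 on its own strand, at no more than 135; whether counting used strand is not given in the sources used here.

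CD74, the invariant chain, had the highest level per kilobase of the 10 transcripts. The DMSO libraries held 18642, 17397, 16239.6 and 16309.6 normalized counts and the IMP1088 libraries 14385, 14098, 14841 and 14700.3. Replicate 1 was the highest DMSO library and the groups did not overlap. CD74 fell by 15.3% (log2 change -0.24, SE 0.04, adjusted p = 2.36e-04).

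Both chains of HLA-DR fell. HLA-DRA, its nearly invariant α chain, held 4709, 4837, 4746 and 4687 normalized counts in the DMSO libraries and 3925, 3905, 4082 and 3914 in the IMP1088 libraries. Replicate 3 stood above the other IMP1088 libraries but well below every DMSO library. HLA-DRA fell by 16.6% (log2 change -0.26, SE 0.03, adjusted p = 5.04e-07). HLA-DRB1, the polymorphic β chain, held 513, 509.9, 512 and 513 normalized counts with DMSO and 420.5, 384, 389 and 356 with IMP1088. The DMSO libraries were nearly equal, and the IMP1088 libraries were spread more widely below them. Its log2 change of -0.40 (SE 0.04, adjusted p = 4.67e-07) had the greatest size of the 10. HLA-DRB5, a near-identical copy, took 3.22% to 7.07% of the reads of the pair, so how counting divided reads between the copies is uncertain.

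HLA-DP and HLA-DQ, the other classical pairs, fell as well. HLA-DPA1, the DP α chain, held 2874, 2773, 2878 and 2735 normalized counts with DMSO and 2355, 2248, 2340.5 and 2255 with IMP1088. Its log2 change was -0.29 (SE 0.03, adjusted p = 8.88e-08), with a wide gap between the groups. For HLA-DPB1, the DP β chain, the libraries held 867 to 949.7 normalized counts under DMSO and 732 to 784 under IMP1088 (log2 change -0.25, adjusted p = 2.96e-05). The 2 DP genes share 96 exonic bases on opposite strands. HLA-DQA1, the DQ α chain, held 526, 466, 473 and 502 normalized counts with DMSO and 420.5, 376, 438 and 404 with IMP1088. Its groups lay closer together than those of HLA-DPA1 and still did not overlap (log2 change -0.26, SE 0.05, adjusted p = 1.67e-04). HLA-DQB1, the DQ β chain, had the smallest fall of the 10, with 603 to 659 normalized counts under DMSO and 539 to 586 under IMP1088 (log2 change -0.17, adjusted p = 0.00315).

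The peptide-exchange chains of HLA-DM fell in the same comparison. HLA-DMA held 345 to 398 normalized counts with DMSO and 253 to 320.2 with IMP1088 (log2 change -0.33, SE 0.07, adjusted p = 0.00117). HLA-DMB held 314 to 374 with DMSO and 254 to 305 with IMP1088 (log2 change -0.26, SE 0.06, adjusted p = 0.00329). HLA-DMA shares 55 exonic bases with BRD2 on the other strand, which reached 3360 normalized counts in a library. For both DM genes the lowest DMSO library and the highest IMP1088 library stood near each other, at 345 and 320 for HLA-DMA and 314 and 305 for HLA-DMB.

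At medium MYC the same dose lowered fewer of the genes. HLA-DPA1, CIITA, CD74 and HLA-DRB1 fell, 4 of the 10, with log2 changes from -0.13 to -0.20, and the other 6 did not pass the test. The median log2 change of the 10 was -0.08, against -0.01 for all genes tested. Across all genes 26.3% changed, 14.6% lower and 11.7% higher, and 15.4% had every IMP1088 library below every DMSO library. Among the 10 genes the groups were apart in this way for the 4 that fell and for HLA-DPB1.

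HLA-DPA1 led at medium MYC. Its DMSO libraries held 3549.6, 3611, 3774 and 3709 normalized counts and its IMP1088 libraries 3214, 3169.9, 3191 and 3179. The IMP1088 libraries were nearly level, 3189 ± 19.2 (SD, n = 4), and all lay far below the lowest DMSO library (log2 change -0.20, SE 0.03, adjusted p = 1.36e-05). CIITA held 2079, 2149.7, 2245 and 2102 normalized counts with DMSO and 1971, 1892, 1893 and 1963 with IMP1088. It fell by 9.96% with no overlap (log2 change -0.15, SE 0.04, adjusted p = 0.00415). The calls of HLA-DPA1 and CIITA held in all 32 alternative settings.

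The calls of CD74 and HLA-DRB1 at medium MYC were less firm. CD74 held 22566, 22838, 26175 and 23115 normalized counts with DMSO and 21213, 21959, 21419 and 21509.7 with IMP1088. Replicate 3 of the DMSO group stood well above the other 3. The log2 change was -0.13 (SE 0.04, adjusted p = 0.0236). Without that library it was -0.09 (adjusted p = 0.0928), after quantile normalization -0.05 (adjusted p = 0.358) and with a GC correction -0.07 (adjusted p = 0.0358, or 0.0562 with a replicate block); over the 32 alternatives adjusted p ran from 0.00899 to 0.358, and the call was lost in 6. HLA-DRB1 held 944, 939, 913 and 922 normalized counts with DMSO and 867, 826, 830.3 and 867 with IMP1088. It fell by 8.81% (log2 change -0.13, adjusted p = 0.0286), a call lost in 9 of 32 alternatives, where adjusted p ran from 0.0131 to 0.142.

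For the remaining genes the intervals at medium MYC limit what change the data allow. HLA-DRA held 7463, 7989, 8004 and 8186 normalized counts with DMSO and 7565, 7557, 7679 and 7296 with IMP1088, and the groups overlapped through replicate 1 of DMSO, the lowest of its group. Its log2 change was -0.07 (95% interval -0.13 to -0.01, adjusted p = 0.0712). It was called in 4 of 32 alternatives, without that replicate at -0.10 (adjusted p = 0.00971), after quantile normalization and with both GC corrections, and adjusted p ran from 0.00718 to 0.234. HLA-DPB1 was at -0.09 (-0.16 to -0.01, adjusted p = 0.0891). HLA-DQA1, with 1364, 1395, 1337 and 1349.9 normalized counts under DMSO and 1375, 1377, 1337 and 1356 under IMP1088, was at 0.00 (-0.10 to 0.10, adjusted p = 0.995). Those 8 libraries were interleaved. HLA-DQB1 was at 0.02 (-0.06 to 0.11), HLA-DMA at -0.02 (-0.16 to 0.13) and HLA-DMB at 0.01 (-0.12 to 0.14). The values of HLA-DQA1, HLA-DMA and HLA-DMB were on either side of 0 depending on the setting.

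The response to IMP1088 at high MYC was set directly against that at medium MYC, since a call at one level and none at the other does not show a difference. HLA-DRB1, HLA-DQA1, CIITA, HLA-DQB1 and HLA-DRA, 5 of the 10, had lower log2 changes at high MYC than at medium MYC. Across all genes 8.63% differed, 5.33% lower at high MYC and 3.31% higher. The median difference of the 10 genes was -0.21 (log2, high minus medium MYC), against -0.02 for all genes tested. HLA-DRB1 differed by -0.27 (SE 0.06, adjusted p = 0.00669). HLA-DQA1 differed by -0.26 (SE 0.06, adjusted p = 0.0115), made up of -0.26 at high MYC and 0.00 at medium MYC. For CIITA the difference was -0.22 (SE 0.05, adjusted p = 0.0111) on top of a fall at both levels. HLA-DRA differed by -0.19 (SE 0.04, adjusted p = 0.00374), and by -0.11 after quantile normalization. These 4 calls held in all 31 alternatives. The difference for HLA-DQB1, -0.20 (SE 0.06, adjusted p = 0.0398), lost its call in 16 of them, where adjusted p ran from 0.0186 to 0.102.

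The other differences did not pass the test, and their intervals, which are not adjusted for the number of genes, reached well below 0. HLA-DMA was called in 10 of 31 alternatives, HLA-DMB in 7, HLA-DPB1 in 4 and CD74 in 1; without medium MYC DMSO replicate 3, HLA-DMA was at -0.37 (adjusted p = 0.0107, range over alternatives 0.0107 to 0.114). HLA-DMA was at -0.31 (95% interval -0.52 to -0.11, adjusted p = 0.0536) and HLA-DMB at -0.27 (-0.45 to -0.09, adjusted p = 0.0635), larger in size than HLA-DRA but with wider errors at their lower counts. HLA-DPB1 was at -0.16 (-0.27 to -0.05, adjusted p = 0.0621). HLA-DPA1 was at -0.09 (-0.18 to -0.01, adjusted p = 0.172) and CD74 at -0.10 (-0.23 to 0.02, adjusted p = 0.346).

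**Figure D2:**
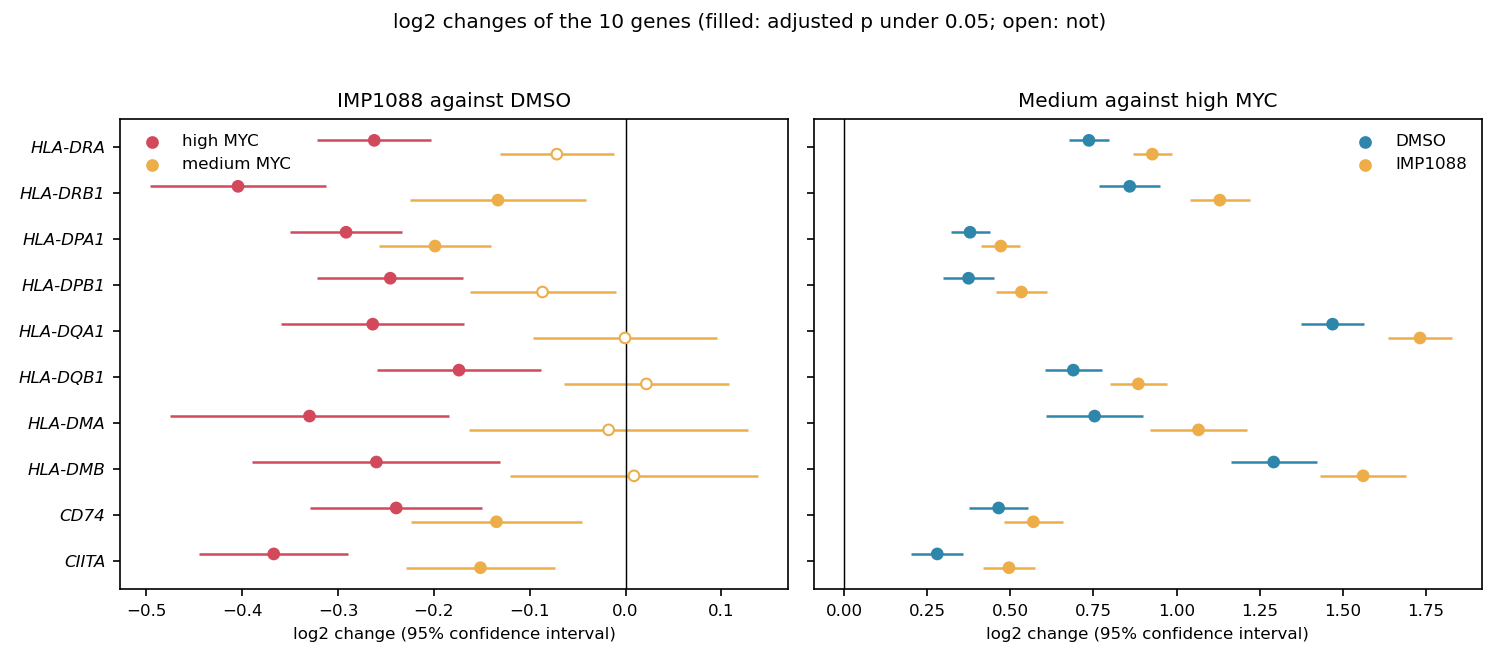
log2 changes with 95% confidence intervals for the 10 genes: left, IMP1088 against DMSO at high (red) and medium (yellow) MYC; right, medium against high MYC in DMSO (blue) and IMP1088 (yellow). Filled points passed the test; on the left all 10 did at high MYC and 4 at medium MYC, and on the right all points lie above 0, with HLA-DQA1 and HLA-DMB farthest out.

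Lower MYC, with doxycycline and oestrogen, went with higher class II transcripts. In DMSO all 10 genes rose from high to medium MYC, and in each the 4 medium MYC libraries lay above the 4 high MYC libraries. The median log2 change was 0.71, against 0.02 for all genes tested. This was a broad change of the transcriptome: 76.2% of all genes changed, 38.9% higher and 37.3% lower, and 35.6% had every medium MYC library above every high MYC library.

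The rise was uneven within the family. HLA-DQA1 rose 2.77-fold, from 492 ± 27.7 (SD, n = 4) to 1362 ± 25.1 (SD, n = 4) normalized counts (log2 change 1.47, SE 0.05, adjusted p = 1.45e-17). HLA-DMB rose 2.45-fold, from 339 ± 25.1 (SD, n = 4) to 831 ± 29 (SD, n = 4) (log2 change 1.29, SE 0.06). Both more than doubled, while their partner chains rose less. HLA-DQB1 rose 1.61-fold and HLA-DMA 1.69-fold. HLA-DRB1 rose 1.81-fold, from 512 ± 1.46 to 929.6 ± 14.5 normalized counts, and HLA-DRA 1.67-fold, from 4745 ± 65.9 to 7911 ± 311. Both DR chains lay between HLA-DMB and HLA-DP in size of rise. HLA-DPA1 and HLA-DPB1 each rose 1.3-fold. HLA-DQA2, a copy close to HLA-DQA1, took 4.75% to 8.79% of the reads of that pair, and summing the copies left every member's call as it was.

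CIITA, the HLA-DP chains and CD74 had the smallest rises. CD74 rose 1.38-fold (log2 change 0.47, SE 0.04, adjusted p = 2.25e-09). CIITA rose 1.22-fold, from 1766 ± 95.6 (SD, n = 4) to 2144 ± 73.4 (SD, n = 4) normalized counts (log2 change 0.28, SE 0.04, adjusted p = 6.64e-07), the smallest rise of the 10. With a correction for the GC content of transcripts, which shifted the median of all genes from 0.02 to -0.09, the CIITA value was 0.10, HLA-DPB1 was at 0.22 and CD74 at 0.31, all still called. Quantile normalization put CD74 at 0.70.

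With IMP1088 present all 10 genes rose again from high to medium MYC, with a median log2 change of 0.91 against 0.02 for all genes tested; 77.5% of all genes changed, 39.7% higher and 37.8% lower, and 37.2% had no overlap in the higher direction. HLA-DQA1 rose 3.32-fold, HLA-DMB 2.95-fold, HLA-DRB1 2.19-fold and HLA-DMA 2.09-fold. CIITA rose 1.41-fold, from 1368 ± 36.4 to 1929.8 ± 43.3 normalized counts. HLA-DRA rose 1.9-fold, from 3957 ± 84.2 to 7524 ± 162. By construction the test of this widening is that of the difference above, which passed for HLA-DRA, HLA-DRB1, HLA-DQA1, HLA-DQB1 and CIITA. The GC correction, which here shifted the median of all genes from 0.02 to -0.11, put CIITA at 0.29 (log2), from 0.50, and quantile normalization put CD74 at 0.89, from 0.57.

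Levels of different genes were compared per kilobase of the median coding transcript in GENCODE 29. That length was 1941.5 bases for CIITA (8 coding transcripts) and 766 bases for HLA-DMB (3 coding transcripts). The ranks below depend on these lengths, and other lengths were not tried. CD74 was highest in every group, at 15068 ± 992 normalized counts per kilobase (SD, n = 4) in high MYC DMSO and 20803 ± 1478 in medium MYC DMSO. HLA-DRA followed at 3875 ± 53.8 and 6460.3 ± 254, and HLA-DPA1 came next at 2455 ± 63.1 and 3193 ± 87.1. These 3 kept their order in all 4 groups without overlap. CIITA, at 909.8 ± 49.3, was 4th at high MYC with DMSO. HLA-DPB1 followed at 661 ± 27.6, and the lowest 5 lay between 384 ± 16.4 (HLA-DQB1) and 464 ± 26.1 (HLA-DQA1). Within those, the libraries of HLA-DQA1 and HLA-DMB, of HLA-DMB and HLA-DMA, and of HLA-DMA and HLA-DRB1 overlapped, so their order is not resolved. At medium MYC with DMSO, HLA-DQA1 stood 4th at 1285 ± 23.7, above CIITA at 1104 ± 37.8. HLA-DMB, at 1085 ± 37.8, overlapped with CIITA. All these levels are of counted reads. How well reads of polymorphic chains such as HLA-DRB1 mapped to GRCh38 was not tested.

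**Figure D3:**
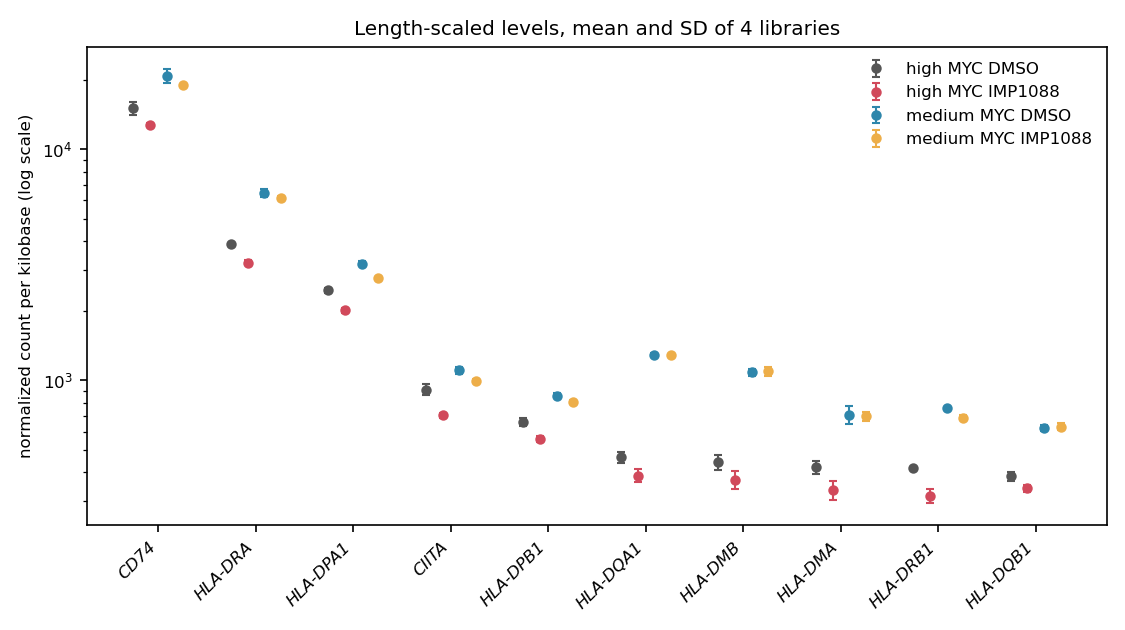
Normalized counts per kilobase of transcript (log axis) for the 10 genes, ordered by their level in high MYC DMSO; points are means of 4 libraries and bars 1 SD. CD74, HLA-DRA and HLA-DPA1 lead in every group, and HLA-DQA1 and HLA-DMB pass HLA-DPB1 at medium MYC.

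Ratios of normalized counts within each library do not depend on the scaling between libraries. HLA-DQA1 relative to HLA-DPA1 was 0.175 ± 0.00995 (SD, n = 4) at high MYC with DMSO and 0.372 ± 0.0157 at medium MYC with DMSO. HLA-DQB1 relative to its partner HLA-DQA1 went from 1.29 ± 0.089 to 0.747 ± 0.0288. HLA-DMB relative to HLA-DMA went from 0.931 ± 0.0875 to 1.35 ± 0.114. In each of these 3 the ranges of the 2 groups were apart. For the DP chains the groups overlapped, with HLA-DPB1 to HLA-DPA1 at 0.32 ± 0.0143 and 0.319 ± 0.00457. With IMP1088 at medium MYC that ratio was 0.344 ± 0.0078, above every DMSO library at that level. HLA-DRA relative to CIITA went from 2.69 ± 0.163 to 3.69 ± 0.15, and CD74 relative to HLA-DRA from 3.61 ± 0.241 to 2.99 ± 0.204. Under IMP1088 at high MYC, HLA-DQA1 to HLA-DPA1 was 0.178 ± 0.00821 and HLA-DMB to HLA-DMA was 0.977 ± 0.0897, each overlapping its DMSO value.

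The median profile of the 10 genes over the 16 libraries was then compared with each other tested gene, by the root mean square difference of gene-centred log2 values. The nearest were PREX1, a Rac exchange factor, at 0.041, H1-2, a linker histone, at 0.047, SEC14L1, a Sec14-like protein, at 0.053, NUSAP1, a spindle-associated protein, at 0.056, and USP11, a deubiquitinase, at 0.061. Of the 10 genes themselves HLA-DQB1 (0.042) and HLA-DRA (0.049) lay nearest to the median profile and HLA-DQA1 (0.42) and HLA-DMB (0.34) farthest. This is a description over 16 libraries that share 4 conditions.

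Other class II loci, 4 of 5 tested, moved in the same directions where they were called. HLA-DQA2 and HLA-DRB5 took 4.75% to 8.79% and 3.22% to 7.07% of the reads of their pairs with HLA-DQA1 and HLA-DRB1. Whether the values of these 2 copies hold reads of HLA-DQA1 and HLA-DRB1 was not tested, so they are not independent readings. At high MYC IMP1088 lowered 2 of the 4 (16.3% of all genes). They were HLA-DQA2 (-0.49 log2, adjusted p = 0.0225) and HLA-DOB (-0.34, adjusted p = 0.0297), a chain of the HLA-DM inhibitor HLA-DO. DESeq2 called neither, and edgeR called 2. At medium MYC HLA-DOB alone fell (-0.34, adjusted p = 0.0312), where 14.6% of all genes did, a call that 9 of 31 alternatives lost. From high to medium MYC in DMSO all 4 rose (38.9% of all genes): HLA-DQA2 by 1.13, HLA-DRB5 by 0.88, HLA-DOA by 0.69 and HLA-DOB by 0.40. With IMP1088 they rose by 1.61, 1.11, 0.76 and 0.40.

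Genes for the DNA-bound partners of CIITA were read next. Of 7 RFX, NF-Y and CREB genes, limma called 0 changed by IMP1088 at high MYC, where 26.8% of all genes changed. At an unadjusted p under 0.05 there were 0, and edgeR and DESeq2 called 0. The median log2 change of the 7 was -0.06. At medium MYC 1 rose and 1 fell (all genes 11.7% and 14.6%). RFXAP, an RFX subunit, rose by 0.27 (adjusted p = 0.0216). NFYA, an NF-Y subunit, fell by 0.17 on the log2 scale (adjusted p = 0.0282), and DESeq2 called neither gene. From high to medium MYC in DMSO 4 rose and 2 fell, 6 of 7 changed where 76.2% of all genes did. The largest of these were NFYB (-0.40), RFXAP (-0.36), RFXANK (0.33) and RFX5 (0.27), and RFX5 was as low as 0.12 over its alternatives. In IMP1088 4 rose and 2 fell (77.5% of all genes changed), led by NFYB (-0.39), RFX5 (0.37), RFXANK (0.29) and CREB1 (0.25).

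The genes that act on the transcription of CIITA include activators and repressors. At high MYC 9 of 15 fell with IMP1088 and 4 rose, where 16.3% and 10.5% of all genes did; DESeq2 called 6 lower and 4 higher. ZBTB32, which represses CIITA together with PRDM1 (Blimp-1), fell most (-0.93, adjusted p = 8.13e-08). The ETS factor SPI1 (-0.51) and the interferon-γ receptor chain IFNGR1 (-0.39) also fell. PRDM1, a repressor of CIITA in plasma cells, rose (0.38, adjusted p = 0.00134; named after its values were seen). At medium MYC 3 rose and 4 fell (all genes 11.7% and 14.6%), led by PRDM1 (0.40), IFNGR1 (-0.39), SPI1 (-0.36) and IRF4 (0.30). From high to medium MYC in DMSO 13 rose and 1 fell (all genes 38.9% and 37.3%), with IFNGR1 at 2.86, JAK1 at 2.67, IRF4 at 2.39 and IRF2 at 1.60. With IMP1088 13 rose and 0 fell (all genes 39.7% and 37.8%), 0 lower also by edgeR and DESeq2, with 13 at an unadjusted p under 0.05 in all; the leaders were IFNGR1 (2.86), JAK1 (2.66), IRF4 (2.47) and ZBTB32 (2.38).

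Of the genes for invariant chain processing and class II turnover, 9 of 10 were tested. At high MYC 2 fell and 2 rose with IMP1088 (all genes 16.3% and 10.5%). The cathepsin gene CTSB (-0.43) and IFI30 (-0.35), the lysosomal thiol reductase GILT, fell. CTSS (0.15), the protease of the late CD74 cuts, and LGMN (0.12), asparagine endopeptidase, rose. The LGMN rise was called in 25 of 32 alternatives, and DESeq2 called 1 gene of the list higher. At medium MYC 3 rose and 2 fell (all genes 11.7% and 14.6%): CTSH fell (-0.34), as did IFI30 (-0.20, named here after its value was seen), and CTSS (0.29), LGMN (0.28) and MARCHF8 (0.25), a ubiquitin ligase, rose. From high to medium MYC in DMSO 6 rose and 2 fell (all genes 38.9% and 37.3%). The largest were CTSH (2.94), SPPL2A (1.85), the protease of the last CD74 fragment, MARCHF1 (1.68), a ligase that marks class II for turnover, and CTSB (0.91). In IMP1088 7 rose and 2 fell (all genes 39.7% and 37.8%), led by CTSH (2.61), MARCHF1 (1.93), SPPL2A (1.82) and CTSB (1.28).

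**Figure D4:**
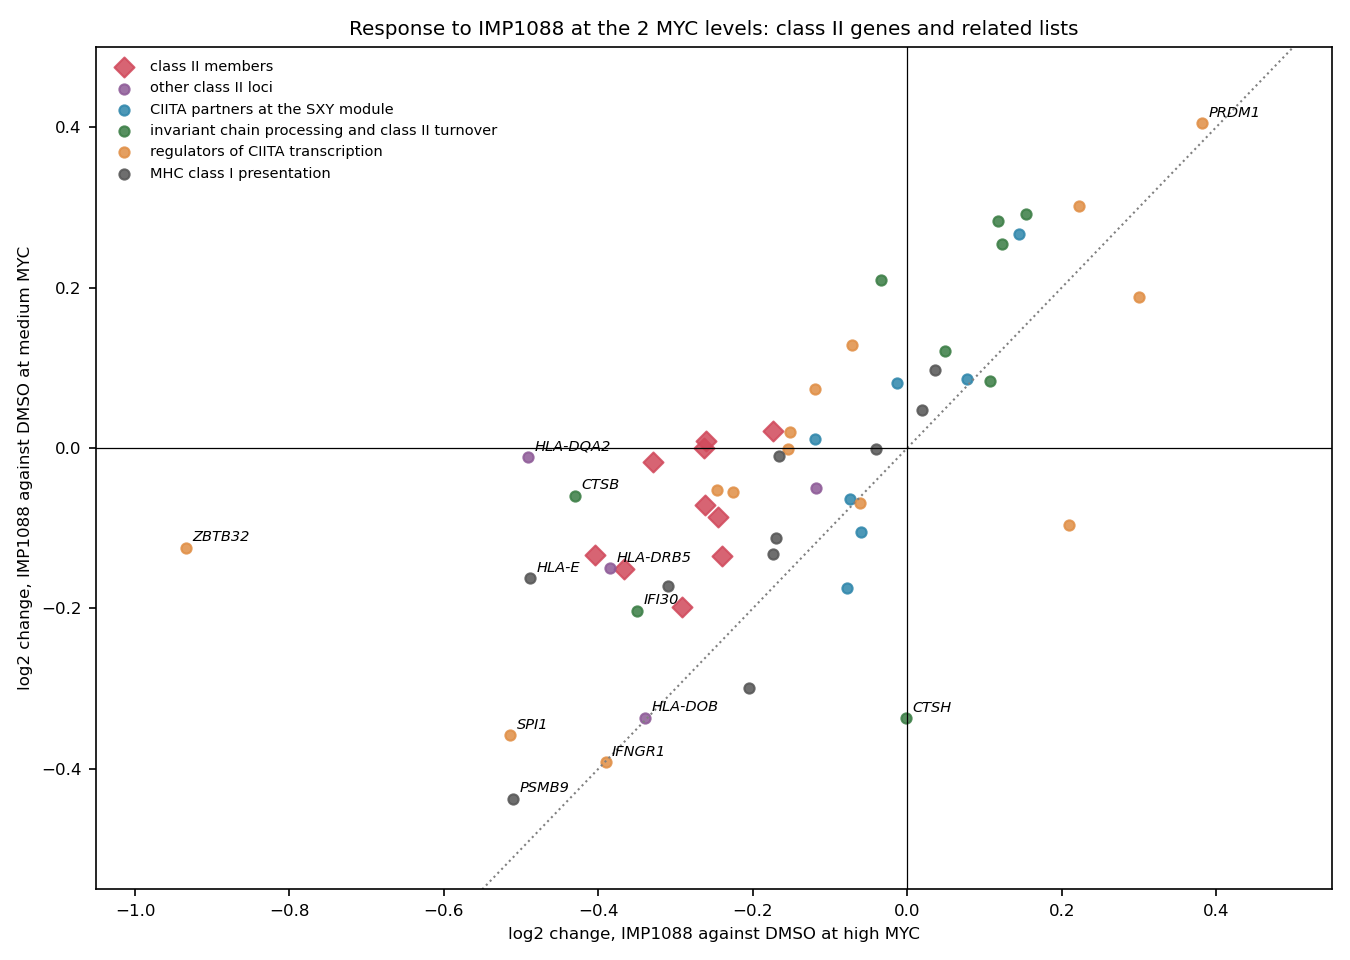
log2 change with IMP1088 at high MYC (horizontal) against that at medium MYC (vertical) for the 10 class II genes (diamonds) and the genes reported from the related lists (circles); the dotted line marks equal changes. The diamonds lie between -0.40 and -0.17 on the horizontal axis and between -0.20 and 0.02 on the vertical axis, above the line.

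MHC class I genes, which present cytosolic peptides to CD8+ T cells, were read alongside. At high MYC 7 of 11 tested class I genes fell with IMP1088 (16.3% of all genes), led by PSMB9 (-0.51), an immunoproteasome subunit, HLA-E (-0.49), a nonclassical class I molecule, PSMB8 (-0.31) and NLRC5 (-0.20), the class I counterpart of CIITA. The classical heavy chain genes HLA-B and HLA-C were not called, at 0.02 and -0.04 (both named after their values were seen). At medium MYC 6 fell and 1 rose (all genes 14.6% and 11.7%), led by PSMB9 (-0.44), NLRC5 (-0.30), PSMB8 (-0.17) and HLA-E (-0.16). From high to medium MYC 9 rose in DMSO and 9 in IMP1088 (38.9% and 39.7% of all genes), with HLA-E at 1.39 and 1.71.

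Markers of B cell identity moved beside the class II genes. At high MYC 7 of 8 B cell markers fell with IMP1088 (16.3% of all genes), and their summed level was 24990 to 25140 normalized counts with DMSO and 20232.5 to 21179 with IMP1088. At medium MYC 4 of 8 fell (14.6% of all genes), with sums of 40782 to 41495 and 36209 to 37366. Of 6 plasma cell markers 3 rose and 1 fell at high MYC (all genes 10.5% and 16.3%). Their sums there were 10226 to 11626 with DMSO and 12066 to 12187 with IMP1088. JCHAIN (named after its values were seen) made up most of them, at 7617 ± 670 with DMSO and 8534 ± 38.7 with IMP1088 (SD, n = 4). Its rise was called in 23 of 32 alternatives. At medium MYC 4 of the 6 plasma cell markers rose (11.7% of all genes), with sums of 1608 to 1739 and 2716 to 2867. From high to medium MYC in DMSO all 6 fell (37.3% of all genes). Of the 8 B cell markers 5 rose and 3 fell (all genes 38.9% and 37.3%). Markers of other cells were low but moved too (CD3E, CD3G, ITGAM, CD1C, LYZ and CD14 are named after their values were seen). The summed T cell markers went with IMP1088 from 62.9 to 71.5 down to 45.2 to 57.7 normalized counts at high MYC, and from 75.1 to 102 down to 45.4 to 58.5 at medium MYC. Of the 2 T cell markers tested, 1 fell at high MYC and 2 at medium MYC (16.3% and 14.6% of all genes). CD3G fell at both levels (-0.73 and -0.74 log2) and CD3E at medium MYC (-0.71). At each level the CD3G fall was called in 24 of 31 alternatives. The summed monocyte and dendritic cell markers were at 129 to 162 with DMSO and 120 to 131 with IMP1088 at high MYC, and at 311 to 332 and 286 to 318 at medium MYC. Of the 3 tested, 2 fell with IMP1088 at high MYC (16.3% of all genes), ITGAM (-0.47) and CD1C (-0.65), while LYZ was at 0.04 (adjusted p = 0.863). CD14, below the filter on low values, went the other way there, from 2.42 ± 1.79 to 8.45 ± 2.02 normalized counts (SD, n = 4). ITGAM and CD1C rose from high to medium MYC in DMSO (1.49 and 1.28), where 38.9% of all genes rose. The CD1C fall was called in 24 of 31 alternatives. LYZ rose with IMP1088 at medium MYC (0.45), 1 of the 3 tested, where 11.7% of all genes rose. The part of these shifts in the class II values was not tested.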

How the data were processed

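The deposited table gives normalized counts for 58051 genes in 16 libraries of total RNA. STAR 2.5.2a, RSEM 1.2.31, DESeq2 1.16.1 and GRCh38 are named in the submitters' processing notes; annotation and strand use are not given in the sources used here. The values, a signal unit, are whole reads that the authors divided by 1 factor per library: 100% came out whole within 1e-06 reads. Whether these reads were tallied or are rounded RSEM estimates is not given in the sources used here. Gene symbols were matched for 56948 genes.

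Genes with a mean of at least 10 (13765) were fitted with limma 3.58.1 in R 4.3.3 on log2(value + 1), with 4 group means and a mean trend, and called at an adjusted p under 0.05 (Benjamini-Hochberg, two-sided). The code was tested on simulated data. Alternatives were count tests on the recovered reads (edgeR 4.0.16; DESeq2 1.42.0), other scalings, filters and pseudocounts, a replicate block, GC correction (13694 genes had a value), summed copies, and leaving out each library. No label says that replicates came from separate cultures, so p-values measure only the spread between these libraries, which may be technical. Depth limits precision mostly for HLA-DMA and HLA-DMB, at 228 reads or more per library.

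The members and lists were chosen with earlier results of these data known. All 10 genes are named; from each related list, up to 4 genes with the largest called change per comparison; and the 5 genes with the nearest profile. Genes named outside this rule are marked where they appear. Some genes of the related lists enter the counts but are not reported here.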

Additional observations from a re-analysis of the deposited data

Results flagged for a closer look

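In 3 of the 40 groups of 4 libraries formed by the 10 genes, 1 library stood far from the other 3; chance gives this in about 1 group of 20. HLA-DRA in high MYC IMP1088 replicate 3 was at 4082.3 normalized counts, where the others were at 3905.4 to 3925.2. HLA-DMA in medium MYC DMSO replicate 3 was at 700.12, where the others were at 583.47 to 598.73. CD74 in the same library was at 26175, where the others were at 22566 to 23115. Without this library the CD74 change with IMP1088 at medium MYC was -0.09 (limma adjusted p = 0.0928), and HLA-DMA was at 0.04.

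The response to IMP1088 differed between the MYC levels, by the test of the difference itself (log2, high minus medium MYC, limma), for 5 class II genes: HLA-DRA (-0.19), HLA-DRB1 (-0.27), HLA-DQA1 (-0.26), HLA-DQB1 (-0.20) and CIITA (-0.22). All 5 had the lower log2 change at high MYC, and of them only HLA-DRB1 and CIITA were called lower at medium MYC. Among the related lists, with 4, 7, 9, 15 and 11 genes tested, 7 reported genes passed the same test. Of all genes tested 8.63% passed it. ZBTB32 (-0.81, adjusted p = 1.70e-04), STAT2 (-0.19) and PAX5 (-0.17) were lower at high MYC in relation to medium MYC. IRF1 (0.31, adjusted p = 1.01e-04) went the other way, rising at high MYC (0.21) and falling at medium MYC (-0.10). The medium MYC fall of IRF1 was called in 20 of 32 alternatives. CTSB differed by -0.37, HLA-E by -0.33 and CTSH by 0.34. The calls for STAT2 and CTSH were lost in 16 and 9 of 31 alternatives.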

How the results depend on the processing

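Over 32 alternatives (31 for the difference), 1532 of 1590 member values kept their side of the threshold, 31 lost a call and 27 gained one. In 18 values the sign changed, all at medium MYC and none of them called: HLA-DQA1 in 10 alternatives, HLA-DMB in 5 and HLA-DMA in 3. The counts of class II genes called stayed at 10 at high MYC and in both comparisons of MYC level. At medium MYC the count ran from 2 to 5 and, leaving out 1 library each, from 2 to 4; it was 2 without medium MYC IMP1088 replicate 3, where CD74 (adjusted p = 0.0506) and HLA-DRB1 (0.0729) lost their calls. For the difference it ran from 4 to 7, and from 4 to 7 leaving out 1 library each. Counts over all genes ran from 3163 to 3934 at high MYC, 3202 to 3898 at medium MYC, 1013 to 1631 for the difference, 7901 to 12068 for MYC level in DMSO and 7967 to 12437 in IMP1088. Same-numbered libraries did not deviate together on average (mean correlations -0.07, -0.02, 0.02 and -0.02). Of the 16 pairs 1 was over 0.1, and 0, 1, 1 and 1 of 4 libraries correlated best with their own number. These values show no sign of pairing, but they cannot exclude that same-numbered libraries were set up together. With a replicate block the counts of class II genes called were 10 at high MYC, 4 at medium MYC, 6 for the difference and 10 for MYC level in DMSO and in IMP1088, and HLA-DQB1 lost its difference while HLA-DMA and HLA-DMB gained one. HLA-DMA and HLA-DMB had the widest errors of the 10.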
